A study of Mus musculus with 7 samples.

Results

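The genes of the visual cycle and of retinol handling were compared in the retinal pigment epithelium (RPE) of WT and LC3b-/- mice. The set holds 9 genes, chosen by name for their place on the RPE side of the cycle: Lrat, Rpe65, Rdh5, Rdh11, Rdh10, Rlbp1, Rgr, Stra6 and Ttr. These are 9 of the 52740 Ensembl identifiers in the count table, and all 9 were among the 16990 genes that passed the filter on low counts and were tested. Every member had a lower fitted level in the LC3b-/- libraries. Lrat differed most, with a mean LC3b-/- level at 33.3% of the WT mean, and Ttr least, at 60.1%. None of the 9 passed the adjusted threshold in the main test (edgeR), which 0.112% of all genes tested passed in the lower direction. At an unadjusted p under 0.05, 8 were lower (10.6% of all genes), a number that fell to 2 without LC3b-/- F1 or without LC3b-/- F3, and DESeq2 called 6 (3.66% of all genes).

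The RPE lies behind the photoreceptors and renews the light-sensitive chromophore of their opsins. Light turns 11-cis-retinal into the all-trans form, which leaves the photoreceptor as all-trans-retinol. In the RPE it is esterified by LRAT, the ester is cleaved and isomerised to 11-cis-retinol by RPE65, and 11-cis-retinol dehydrogenases oxidise it to 11-cis-retinal, which CRALBP (the product of Rlbp1) binds for its return. New retinol arrives from the blood bound to retinol binding protein, whose receptor is STRA6 and whose partner in plasma is transthyretin, the product of Ttr.

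RNA came from 4 WT mice of strain C57BL6/J, the females F1, F2 and F3 and the male M1, and from 3 LC3b-/- mice, the females F1 and F3 and the male M, all 24 months old, with 1 library per mouse. The knockout is carried in the germline and so by every cell, in a separate strain whose name gives a mixed background, so strain background and the targeted gene cannot be told apart. The sample titles also carry a number whose meaning is not given. It is never shared by both genotypes, so whatever it stands for cannot be told apart from genotype. LC3b-/- M carries a different title number from LC3b-/- F1 and F3. RPE had been released by hyaluronidase and trypsin from eyecups freed of cornea, ciliary body and lens, and stranded libraries were made from polyadenylated RNA. The deposited values are estimated read counts per gene, which were converted here to CPM, counts relative to a library total scaled by TMM, a normalization that assumes most genes do not differ between libraries.

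The libraries held 24495952 to 35616134 counts. Map1lc3b, the targeted gene, was at 104 to 130 CPM in WT and at 6.76 to 8.33 CPM in LC3b-/-, a log2 difference of -3.98 (edgeR adjusted p = 1.86e-04). Markers of RPE were abundant in every library: 15 such genes summed to 8093 to 12916 CPM in WT and to 4300.2 to 8421 CPM in LC3b-/-, although Best1, a defining RPE marker, stood at only 0.861 to 1.71 CPM. Markers of ocular surface epithelium, which covers the front of the eye, set the groups apart, at 11.5 to 2549.8 summed CPM in WT and 3534 to 26233 in LC3b-/-. They were highest in LC3b-/- F1 and lowest in WT F3.

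Lrat encodes lecithin retinol acyltransferase, which stores retinol as its ester and so makes the substrate of RPE65. The gene lies at chr3:82799886-82811288 on the minus strand (GRCm39, as for the other genes) and has 1 annotated transcript. WT libraries held 2073 (F1), 1858 (F2), 3323 (F3) and 2365 CPM (M1), and LC3b-/- libraries 432 (F1), 669 (F3) and 1305 CPM (M), an order of libraries kept for the members that follow. The groups did not overlap, and the highest LC3b-/- library was still at 54.3% of the WT mean. The means were 2405 ± 646 CPM (SD, n = 4) and 802 ± 451 CPM (SD, n = 3), a 3.00-fold difference. On the log2 scale the fitted difference was -1.58 (SE 0.42, edgeR unadjusted p = 0.00581, adjusted p = 0.103). An exact two-sided permutation test over the 35 assignments of the libraries gave p = 0.0571, the smallest value that 4 against 3 libraries allow. In such bulk libraries fewer RPE cells and less RNA per RPE cell cannot be told apart.

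Rpe65, the retinoid isomerohydrolase (chr3:159304802-159330958, plus strand), read 2179, 2132, 2437 and 3968 CPM in WT and 878, 1339.9 and 2134 CPM in LC3b-/-. The male LC3b-/- library reached the lowest WT value (2134 against 2132 in WT F2), while LC3b-/- F1 lay at 32.8% of the WT mean. The means were 2679 ± 869.7 (SD, n = 4) and 1450.4 ± 635 CPM (SD, n = 3), and the log2 difference was -0.89 (SE 0.37, edgeR unadjusted p = 0.0472, adjusted p = 0.203). The exact permutation test gave p = 0.114.

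Rdh5 (chr10:128749385-128759341, minus strand) encodes the main 11-cis-retinol dehydrogenase of the RPE. Its levels were 1937, 2037, 2661 and 3094 CPM in WT and 839, 946 and 1621 CPM in LC3b-/-, with no overlap. The log2 difference was -1.10 (SE 0.31, edgeR adjusted p = 0.110), and the mean LC3b-/- level was 46.7% of WT. In the annotation Rdh5 shares 3692 of its 5221 exon bases with Bloc1s1, a neighbour on the same strand that encodes a subunit of lysosome-related organelle complexes. With the counts of both genes summed, of which Rdh5 held 92.5% to 96.6%, the log2 difference was -1.08 (edgeR adjusted p = 0.109). Rdh5 transcripts also match Gm7936 over up to 314 bases, with up to 97.5% identity.

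Rdh11 (chr12:79220408-79239067, minus strand) and Rdh10 (chr1:16175555-16203958, plus strand) encode further retinol dehydrogenases that act on 11-cis- and all-trans-retinol. Rdh11 was the least abundant member, at 83.7, 73.9, 88.1 and 124 CPM in WT and 32.6, 43.3 and 73.1 CPM in LC3b-/-. Its groups did not overlap, although LC3b-/- M (73.1) came close to WT F2 (73.9), and the log2 difference was -0.90 (SE 0.30, edgeR adjusted p = 0.146). Rdh10 stood at 1648, 1631, 2149 and 2686 CPM in WT and at 600.5, 788 and 1633 CPM in LC3b-/-. Here LC3b-/- M lay just above WT F2, so the groups overlapped, with a log2 difference of -1.01 (SE 0.39, edgeR adjusted p = 0.175). The non-coding genes Gm61068 and Rbm46os lie antisense to 491 exon bases of Rdh11 and 448 of Lrat, and whether strand was used in counting is not given in the sources used here.

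Rlbp1 (chr7:79024602-79038176, minus strand), whose product CRALBP carries 11-cis-retinoids, read 2399, 2612, 3565 and 3837 CPM in WT and 1065, 1459 and 2547 CPM in LC3b-/-. LC3b-/- M exceeded WT F1, and the other 2 LC3b-/- libraries lay below every WT library. The log2 difference was -0.88 (SE 0.35, edgeR adjusted p = 0.186).

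Rgr (chr14:36756866-36770921, minus strand) encodes the RPE-retinal G protein-coupled receptor, an opsin of the RPE and Müller glia that binds all-trans-retinal. It stood at 9515, 9283, 12266 and 15172 CPM in WT and at 3501, 4428 and 8212 CPM in LC3b-/-. The groups did not overlap, and LC3b-/- F1 held 30.3% of the WT mean. The log2 difference was -1.10 (SE 0.39, edgeR adjusted p = 0.155).

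Stra6 (chr9:57970967-58063543, plus strand), the receptor through which RPE takes up retinol from its plasma carrier, measured 863, 805, 1123 and 1441 CPM in WT and 343, 467 and 893 CPM in LC3b-/-. LC3b-/- M lay above WT F1 and F2, so the groups overlapped (log2 difference -0.90, SE 0.37, edgeR adjusted p = 0.197). Ttr, which RPE secretes as a carrier of thyroxine and of the retinol binding protein, measured 11769.6, 11704, 12485 and 18326 CPM in WT and 6057, 6531 and 11885 CPM in LC3b-/-. Again LC3b-/- M lay above WT F1 and F2, and the log2 difference of -0.73 (SE 0.36, edgeR unadjusted p = 0.079, adjusted p = 0.258) was the smallest of the 9.

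**Figure D1:**
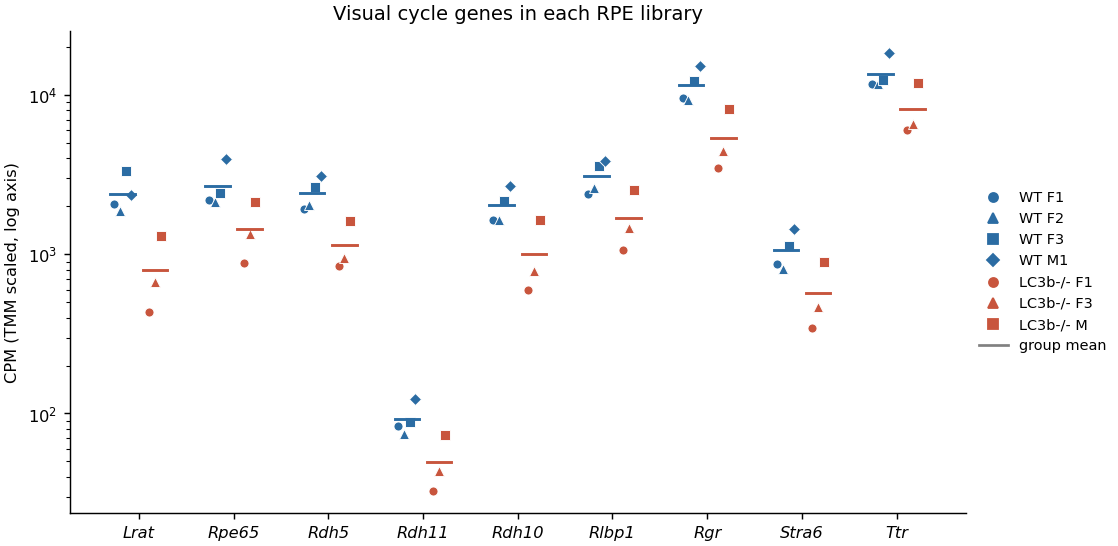
CPM of the 9 genes (log axis) in each of the 4 WT (blue) and 3 LC3b-/- (red) libraries, with bars at the group means. LC3b-/- F1 is the lowest and LC3b-/- M the highest LC3b-/- library for every gene, and Lrat, Rdh5, Rdh11 and Rgr show no overlap between the groups.

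Counted over the set, 0 of 9 members were called lower and 0 higher by edgeR (adjusted p under 0.05 and at least 1.5-fold), where 0.112% and 0.124% of all genes tested were called in those directions. At an unadjusted p under 0.05, 8 of 9 were lower, all but Ttr, against 10.6% of all genes. For 4 of 9 the highest LC3b-/- value was under the lowest WT value, against 10.3% of all genes. The median log2 difference of the members was -0.90, beside 0.014 over all genes tested. The exact permutation test gave 0.0571 for these 4 (Lrat, Rdh5, Rdh11 and Rgr) and 0.114 to 0.171 for the others. The test used in the study, the Wald test of DESeq2, called 6 members lower, where it called 3.66% of all genes. They were Lrat, Rlbp1, Rdh5, Rdh10, Rdh11 and Rgr. Limma's voom, run with sample quality weights, called 0 members, where it called 44 of the 16990 genes lower and 80 higher. In that voom fit all 9 members were lower at an unadjusted p under 0.05, against 13.9% of all genes. Without LC3b-/- M, edgeR called 1 member, Lrat (log2 difference -2.13, adjusted p = 0.0399), against 0.832% of all genes in that fit. The number at an unadjusted p under 0.05 fell to 2 without LC3b-/- F1 (5.74% of all genes) and likewise without LC3b-/- F3 (7.2%), to 3 without WT M1 (6.53%) and to 4 without WT F3 (7.84%).

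The spread followed the library more than the gene. LC3b-/- F1 was the lowest and LC3b-/- M the highest LC3b-/- library for all 9 members, and WT M1 was the highest WT library for all but Lrat, which peaked in WT F3. Together the 9 genes took 3.17% to 4.97% of a WT library's counts and 1.28%, 1.87% and 3.03% of LC3b-/- F1, F3 and M. After subtracting group means, the Pearson correlation between members over the 7 libraries had a median of 0.957 across 36 pairs, from 0.725 for Lrat and Ttr to 0.998 for Rgr and Stra6. These are descriptions, since all pairs share the same libraries and their scaling.

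Both males were the highest library of their genotype for most members, and each genotype had only 1 male. For LC3b-/- M, sex and the title number cannot be told apart. Within sexes, both female LC3b-/- libraries lay below all 3 female WT libraries and the male LC3b-/- library below the male WT library for 9 of 9 members, a pattern held by 19.5% of all genes tested. With sex as a covariate edgeR called 2 members lower, Rdh5 (log2 difference -1.20, adjusted p = 0.0479) and Rdh11 (-1.01, adjusted p = 0.0479), where 0.747% of all genes were called lower.

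The levels themselves can be ordered only per length of transcript. Divided by the kilobases of annotated exon, Ttr led with 7113 ± 1672 CPM per kb in WT (SD, n = 4) and 4276 ± 1697 in LC3b-/- (SD, n = 3). Rgr followed at 2415 and 1124, Rpe65 at 1378 and 746, and Rlbp1 at 865 and 471 CPM per kb in WT and LC3b-/-. Rdh5 (466 and 217), Rdh10 (441 and 219) and Lrat (449 and 150) formed a close group, and Stra6 (125 and 67.2) and Rdh11 (22.2 and 11.9) came last. Each gene lay above the next in 7 of 7 libraries, except that Rdh5 exceeded Rdh10 in 6 of 7 and Rdh10 exceeded Lrat in 5 of 7. Divided by the longest transcript instead, the order of genes was the same, but the exceptions differed. Rpe65 then exceeded Rlbp1 in 6 of 7 libraries, Rdh5 exceeded Rdh10 in 7 of 7 and Rdh10 exceeded Lrat in 6 of 7. So the middle of the order is not settled, and the mRNA for the opsin Rgr was more abundant per length than that of the isomerase.

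Because RPE markers were themselves lower in LC3b-/-, each member was also set against the mean log2 CPM of the 15 RPE markers in the same library. For Lrat this relative level was 2.84, 3.14, 3.40 and 3.02 in the WT libraries, in the same order, and 1.49, 1.93 and 2.59 in LC3b-/-. Lrat stayed below WT in every LC3b-/- library, by -1.10 on the log2 scale (exact two-sided permutation p = 0.0571, the smallest possible), as 0.718% of all genes did. Subtracting markers that were lower in LC3b-/- raises every gene there relative to WT on average. Without the subtraction the share was 10.3%. With the median of the markers in place of the mean, the difference of Lrat was -0.70 and its groups overlapped (exact permutation p = 0.114). The other 8 members overlapped in the main comparison with the mean, with differences from -0.57 for Rgr, -0.53 for Rdh5 and -0.51 for Rdh10 to -0.33 for Rpe65 and -0.17 for Ttr. The signs of Rpe65, Rlbp1, Rdh11, Stra6 and Ttr turned when the median of the markers replaced the mean, as given with the processing alternatives. Relative to a shortened list of 9 markers, Rdh5 and Rgr, like Lrat, did not overlap between the groups, as also given there.

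When the libraries were scaled by these markers within edgeR, which moved the median of all genes tested to 0.61, 1 of 9 members was called lower, Lrat (log2 difference -1.04, adjusted p = 0.0463), against 0.277% of all genes. Lrat was also the 1 member at an unadjusted p under 0.05, against 0.724% of all genes. The other members lay between -0.55 for Rgr and -0.18 for Ttr. Scaled by 9 markers, without those that pigment cells of the choroid share and without Best1, 0 members were called lower by edgeR (0.118% of all genes), 1 was lower at an unadjusted p under 0.05 (0.441% of all genes), and the median of all genes moved to 0.90.

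**Figure D2:**
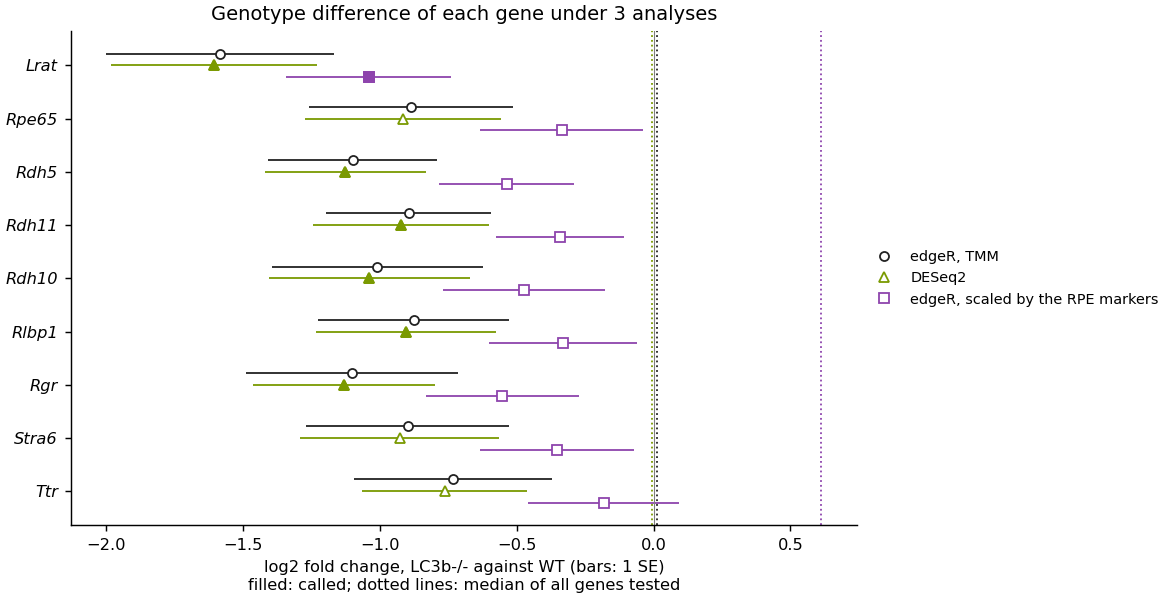
Log2 fold change of each gene between LC3b-/- and WT, with bars of 1 SE, from edgeR with TMM, DESeq2 and edgeR scaled by the RPE markers, where filled symbols passed both thresholds and dotted lines mark the median of all genes. Lrat lies farthest to the left in all 3 analyses, and the marker scaling moves every gene toward 0 and the median of all genes to 0.61.

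**Figure D3:**
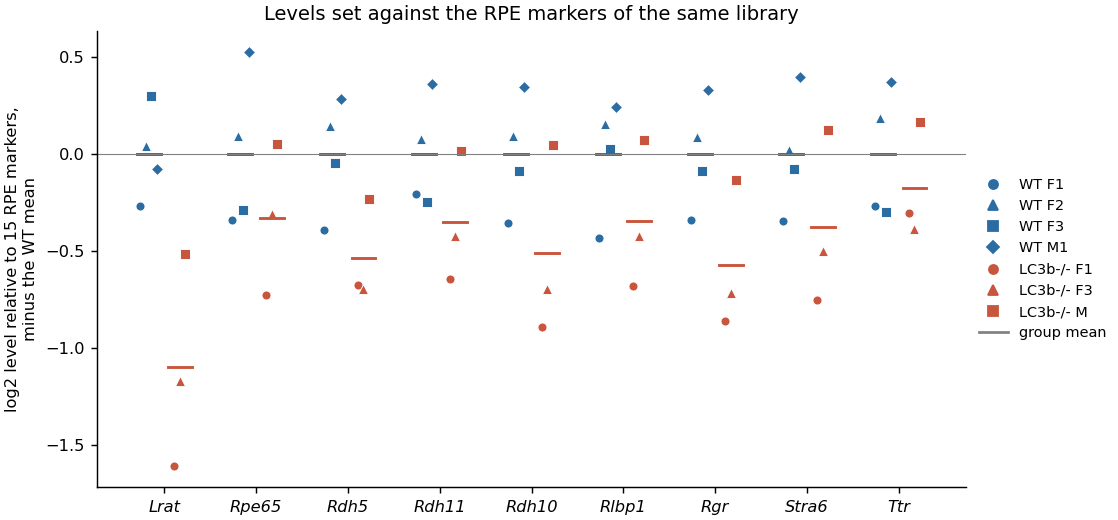
Log2 CPM of each gene minus the mean of the 15 RPE markers of the same library, shown relative to the WT mean of that gene. The 3 LC3b-/- libraries (red) lie below all 4 WT libraries (blue) for Lrat, and the groups overlap for the other 8 genes.

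Ratios between members of the same library do not depend on the scaling. Of 36 ratios, 12 did not overlap between the groups, against 22.2% of the ratios between any 2 genes tested. Lrat was lower relative to 5 of the 8 other members without overlap: Rlbp1 (log2 ratio difference -0.76), Rdh10 (-0.59), Rdh11 (-0.75), Stra6 (-0.72) and Ttr (-0.92). The ratio of Rpe65 to Lrat was higher by 0.77 in LC3b-/-, but WT M1 overlapped with the LC3b-/- libraries. Rgr was lower without overlap relative to Rlbp1 (-0.23), Rdh11 (-0.22), Stra6 (-0.19) and Ttr (-0.39). Ttr was higher relative to Lrat, Rdh5, Rdh10 and Rgr. The ratio of Rpe65 to Rlbp1 was higher by 0.014 (exact permutation p = 0.914).

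**Figure D4:**
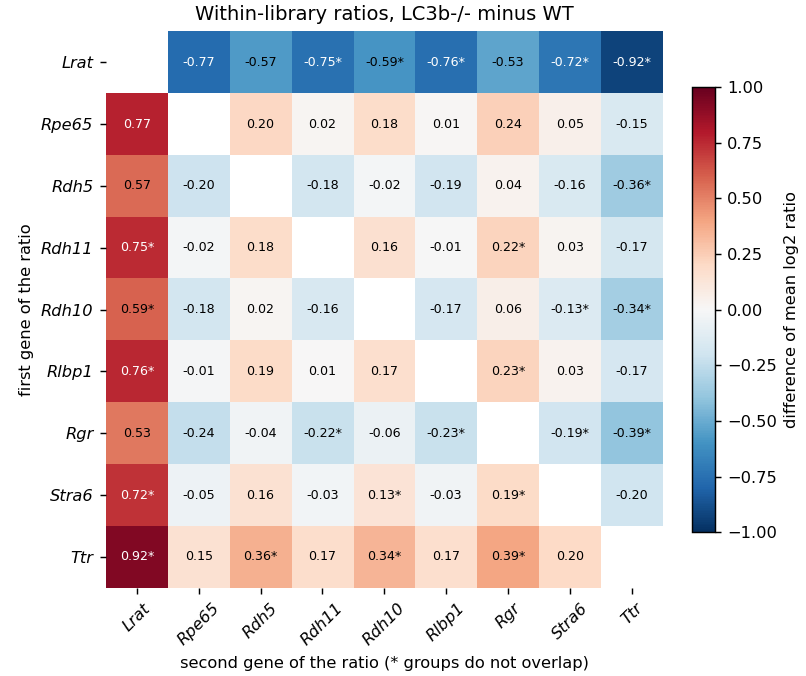
Difference between LC3b-/- and WT in the mean log2 ratio of the row gene to the column gene, with an asterisk where no library of one group reached the range of the other. The row of Lrat is negative throughout, from -0.92 against Ttr to -0.53 against Rgr, and the row of Ttr is positive throughout.

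The promoters of the members were read for motifs that they share. RefSeq windows from 250 bases before to 50 after a start (build GRCm38.p6) were counted for 7 of the 9 genes, 11 windows in all. Of these, 3 are shown: Lrat, which differed most, and Rpe65 and Rgr, which hold both motifs found in more than 1 gene. Capitals mark, on either strand, TAATCC, the core bound by the homeodomain factors OTX2 and CRX, and CATGTG, an E-box form bound by MITF. Each sequence is written 5′ to 3′ in the direction of its gene. The windows are chr3:82903925-82904224 (minus strand) for Lrat, chr3:159598931-159599230 (plus strand) for Rpe65 and chr14:37048965-37049264 (minus strand) for Rgr.
Lrat: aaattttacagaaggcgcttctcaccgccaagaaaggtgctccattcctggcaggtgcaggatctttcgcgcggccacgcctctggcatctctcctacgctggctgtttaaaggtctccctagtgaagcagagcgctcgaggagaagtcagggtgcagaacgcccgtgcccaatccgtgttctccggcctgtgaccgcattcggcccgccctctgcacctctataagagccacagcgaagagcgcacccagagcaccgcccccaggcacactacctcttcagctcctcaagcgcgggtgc
Rpe65: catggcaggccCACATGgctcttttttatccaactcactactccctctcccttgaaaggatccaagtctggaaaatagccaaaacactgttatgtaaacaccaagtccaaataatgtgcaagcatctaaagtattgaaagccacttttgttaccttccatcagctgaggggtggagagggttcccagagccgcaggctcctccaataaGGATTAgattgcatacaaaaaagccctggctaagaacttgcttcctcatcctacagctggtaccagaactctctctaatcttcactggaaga
Rgr: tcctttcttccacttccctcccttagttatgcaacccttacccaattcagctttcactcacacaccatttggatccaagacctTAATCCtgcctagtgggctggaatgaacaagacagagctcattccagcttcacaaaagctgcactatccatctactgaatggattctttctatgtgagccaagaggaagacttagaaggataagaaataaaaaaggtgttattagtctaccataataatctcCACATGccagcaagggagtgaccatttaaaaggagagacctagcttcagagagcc

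TAATCC on either strand stood in 2 of the 11 windows, those of Rpe65 and Rgr, and in 7.06% of 32851 promoter windows of the table. CATGTG stood in 3 (Rpe65, Rgr and Rlbp1) and in 14.2% of all windows, and CACGTG, another E-box, in 1 of the windows of Rdh11 and in 7.15%. The windows of Lrat, Rdh5 and Stra6 held none of the 3. No window was found for Rdh10, and Ttr was left out of the motif counts, so the counts cover neither gene. The window of Lrat had 60.7% G and C bases, those of Rpe65 and Rgr 45.3% and 43.0%. The bases after the RefSeq start of Rgr were in none of its GENCODE transcripts. A match describes letters in a window and is not evidence of binding.

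Of 34 other genes of retinoid handling, 28 were tested: 19 were lower and 9 higher in LC3b-/-, and 0 were called by edgeR. At an unadjusted p under 0.05, 8 were lower (10.6% of all genes) and 6 higher (13.5% of all genes). DESeq2 called 4 lower (3.66% of all genes) and 5 higher (7.12% of all genes). Voom called 0 lower and 1 higher, where it called 44 and 80 of the 16990 genes tested. The lower ones included genes of RPE retinoid metabolism. Retsat, a retinol saturase, stood at 48.6 to 68.4 CPM in WT and at 30.6, 30.0 and 37.4 CPM in LC3b-/- (log2 difference -0.87, SE 0.16, edgeR adjusted p = 0.0842). Rrh, the RPE opsin peropsin, read 202, 194, 259 and 290 CPM in WT and 56.9, 84.0 and 147 CPM in LC3b-/- (-1.30, SE 0.33, edgeR adjusted p = 0.0990). Neither overlapped between the groups.

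Degs1, a desaturase also proposed as an isomerase, differed by -0.70 (edgeR adjusted p = 0.128), and Abca4, the retinoid flippase of photoreceptors and RPE, by -0.61 (edgeR adjusted p = 0.248). Rbp3, the carrier made by photoreceptors, ranged from 8.80 to 1337 CPM in WT and from 10.4 to 590 CPM in LC3b-/-, so its groups overlapped widely. Summed rod and cone markers ranged as widely, from 299 to 22798 CPM in WT and from 109 to 7824 CPM in LC3b-/-.

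Of the 9 higher genes, Dgat1 (0.19), Rdh13 (0.030) and Adh7 (2.43) did not reach an unadjusted p under 0.05. Stra6l, a relative of Stra6, stood at 0.225 to 0.615 CPM in WT and at 2.34 to 3.37 CPM in LC3b-/-, a log2 difference of 2.68 that missed the threshold (SE 0.40, edgeR adjusted p = 0.0580). Rdh16 was at 0.0749 to 0.497 CPM in WT and at 11.1, 4.81 and 1.18 CPM in LC3b-/- F1, F3 and M (4.27, edgeR adjusted p = 0.0906), and Crabp2, a retinoic acid binding protein, at 0.599 to 2.43 and 3.87 to 9.99 CPM (2.07, edgeR adjusted p = 0.100). Rbp2, Rbp7 and Adh1 differed by 4.04, 3.04 and 2.86 on the log2 scale, with edgeR adjusted p from 0.102 to 0.123, although Rbp7 nowhere exceeded 0.768 CPM. Rbp2 read 155, 28.8 and 17.8 CPM and Adh1 637, 222 and 103 CPM in LC3b-/- F1, F3 and M, the same order as the ocular surface markers.

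Of 12 genes of retinoic acid synthesis, clearance and reception, 11 were tested, 7 were higher, and 0 were called by edgeR. At an unadjusted p under 0.05, 3 were higher (13.5% of all genes). They were Aldh1a3, a retinaldehyde dehydrogenase (log2 difference 2.94, edgeR adjusted p = 0.0840), and the receptors Rarg (1.48, edgeR adjusted p = 0.101) and Rxra (0.41, edgeR adjusted p = 0.178). Aldh1a3 read 3.07 to 7.53 CPM in WT and 72.1, 43.6 and 15.9 CPM in LC3b-/- F1, F3 and M. The fourth by p, Cyp26b1, a retinoic acid hydroxylase, differed by 0.97 (edgeR adjusted p = 0.245). DESeq2 called 2 of the 11 higher (7.12% of all genes) and voom 0 (80 of 16990 genes called higher).

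Markers of other cells were set beside the members. All 12 ocular surface markers were higher in LC3b-/-, with a median log2 difference of 4.31. Of these, 0 were called by edgeR (0.124% of all genes), while 8 were higher at an unadjusted p under 0.05 (13.5% of all genes). DESeq2 called 7 higher (7.12% of all genes) and voom 0 (80 of 16990 genes called higher). Their leading genes were Krt19 (4.85), Krt13 (5.56), Muc4 (5.75) and Krt6a (4.96). Among LC3b-/- libraries the members ran opposite to them, from 13746 summed CPM of members at 26233 CPM of ocular surface markers in LC3b-/- F1 to 30302.5 at 3534 in LC3b-/- M. WT M1 had the most of both among WT libraries, with 51013 CPM of members and 2549.8 CPM of ocular surface markers. Without WT M1 and LC3b-/- F1, the libraries of each genotype with the most ocular surface markers, the median log2 difference of the members was -0.52. These were also the WT library highest and the LC3b-/- library lowest in summed members, and the remaining libraries still held 11.5 to 900.1 CPM of ocular surface markers in WT and 3534 and 7238 in LC3b-/-. The part of these markers in the result was not tested.

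Of the 15 RPE markers, 14 were lower in LC3b-/-, 4 without overlap (10.3% of all genes). EdgeR called 0 (0.112% of all genes lower), DESeq2 called 5 lower (3.66% of all genes) and voom 0 (44 of 16990 genes called lower). At an unadjusted p under 0.05 in edgeR, 5 were lower (10.6% of all genes). Their median log2 difference was -0.47, beside -0.90 for the members. This median depends on the markers chosen. Those that pigment cells of the choroid share, and Best1, lay between -0.47 for Mlana and 0.19 for Best1. The 9 markers of the shortened list lay between -1.21 for Enpp2 and -0.43 for Cdh3. The 5 at an unadjusted p under 0.05 included Kcnj13, a potassium channel (-1.18), Otx2, a transcription factor (-0.75), and Slc16a8, the RPE lactate transporter (-0.92). Slc4a5, a bicarbonate transporter (-0.71), and Enpp2, autotaxin (-1.21), completed these 5. The other 10 lay between -0.86 for Ermn and 0.19 for Best1. Endothelial markers were higher in 10 of 10 cases, led by Pecam1 (1.06), Plvap (0.89), Esam (0.93) and Vwf (0.98). Of these 10, 0 were called by edgeR (0.124% of all genes higher), and 3 were higher at an unadjusted p under 0.05 (13.5%). DESeq2 called 1 higher (7.12% of all genes) and voom 0. All 18 rod and cone markers were lower, by a median of -1.23, with 0 at an unadjusted p under 0.05 and 0 called by edgeR, DESeq2 or voom. Gnat2 (-1.14), Rom1 (-1.39), Opn1mw (-2.32) and Arr3 (-1.78) had the smallest p.

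**Figure D5:**
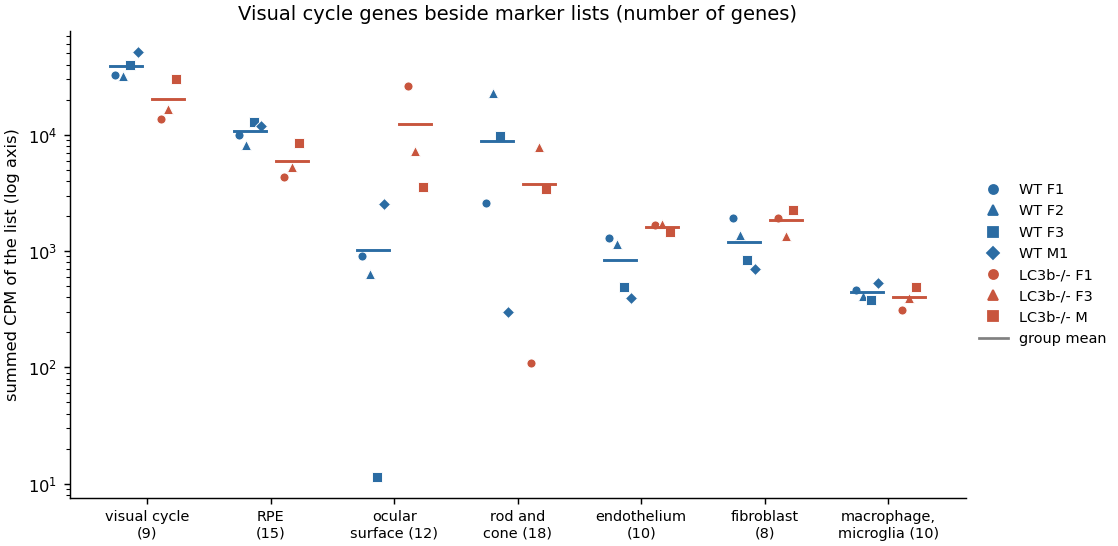
Summed CPM (log axis) of the visual cycle genes and of 6 marker lists in each library, with bars at the group means. Members and RPE markers are lower in LC3b-/- on average, ocular surface markers are higher in every LC3b-/- library than in any WT library, and rod and cone markers spread over a wide range in both groups.

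For 3 members the most similar genes were sought among 9897 genes with a mean of at least 10 CPM, by the Pearson correlation of log2 CPM over the 7 libraries. Rpe65 was followed most closely by Nat8l (r = 0.998), Rimklb (0.994) and Tmem237 (0.991). Rdh5 was followed by Prxl2a (0.999), Pitpna (0.999) and As3mt (0.998), and Ttr by Fibp (0.996), Ranbp9 (0.995) and Serhl (0.995). Such values are common here, since 918, 1287 and 1036 genes had a correlation above 0.9 with Rpe65, Rdh5 and Ttr.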

How the data were processed

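RNA sequencing of RPE from 7 mice was analysed, 1 library per mouse. The authors aligned reads to GENCODE transcripts of GRCm39 with salmon, summed the estimates to genes with tximeta and deposited these estimated counts as whole numbers, without scaling. The members and gene lists were chosen with earlier results of these data known. Counts were filtered with filterByExpr (16990 genes), scaled by TMM and tested with the quasi-likelihood test of edgeR 4.0.16 in R 4.3.3, comparing genotypes with no covariate. P-values were adjusted over all these genes by Benjamini-Hochberg. A gene was called at an adjusted p under 0.05 with at least 1.5-fold change. The authors' tool, DESeq2 (1.42.0 here), was an alternative, as was voom of limma 3.58.1 with sample quality weights. Log2 CPM used a prior count of 2. Permutation tests were exact and two-sided (scipy 1.17.1). Replicate libraries differed by more than sampling noise, so each counted as 1 replicate. Gene models came from GENCODE vM39 and promoters from RefSeq. The code was tested on simulated data.

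Other alternatives were size factors of DESeq2, library size alone, scaling by RPE markers, no filter, a minimum of 10 counts per library, a sex covariate, females alone, a replicate block, each library left out, and, chosen after seeing the data, a shortened RPE marker list, Rdh5 summed with Bloc1s1, and the removal of WT M1 and LC3b-/- F1. Named were all members; in other lists described by gene the called genes, otherwise the 4 genes of smallest p (in other retinoid handling 8, and the 5 most abundant, of which 1 is not reported here); and the 3 genes most correlated with Rpe65, Rdh5 and Ttr. Other genes were named after their values were seen. The median log2 differences of the remaining lists (Müller glia -0.20, macrophage and microglia -0.15, fibroblast 0.70, melanocyte -0.64, ciliary epithelium and lens -0.26, erythrocyte 0.10) were computed in the same fit.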

Additional observations from a re-analysis of the deposited data

Results flagged for a closer look

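Of 18 groups of 4 libraries examined, 1 held a library far from the others: the log2 CPM of Ttr in WT M1 was 14.16, where the other WT libraries lay between 13.51 and 13.61, so that the gap took a share of 0.856 of the range. Chance sets apart about 1 in 20 such groups.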

How the results depend on the processing

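All 9 members stayed below 0 under every other test, TMM replacement, filter, covariate and left-out library tried, except Ttr as given here. The number called lower, 0 with edgeR, was 6 with DESeq2, 2 with sex as a covariate and 1 with scaling by the RPE markers, and ranged from 0 to 1 when each library was left out. Ttr turned, to 0.068, when the libraries were scaled by the shortened RPE marker list, an alternative chosen after seeing the data. Relative to the median in place of the mean of the RPE markers, 5 members turned: Rpe65 (0.072), Rlbp1 (0.058), Rdh11 (0.052), Stra6 (0.024) and Ttr (0.22). Lrat was then at -0.70 with overlap (exact permutation p = 0.114). Relative to the shortened list Ttr was at 0.076, Lrat at -0.85, Rgr at -0.32 and Rdh5 at -0.28. There Lrat, Rgr and Rdh5 each lay below WT in every LC3b-/- library (exact permutation p = 0.0571 for each). The share of all genes with that pattern was not computed. The cause was not tested. F1 and F3 are names that recur in both genotypes for different mice. With these names as a replicate block, edgeR called 0 members and no gene at all. In that fit 9 members were lower at an unadjusted p under 0.05 (7.52% of all genes), and the median log2 difference of the members was -1.30. Deviations of libraries with the same name correlated at 0.146 (F1) and 0.243 (F3), from only 2 pairs. The labels give no pairing of mice between the genotypes, so a pairing is not established. With 4 against 3 libraries an exact permutation p cannot fall below 0.0571.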
